A study of Homo sapiens with 4 samples.

Results

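The genes described here encode the 26S proteasome, the protease that degrades ubiquitin-tagged proteins. They were chosen by name from a list of 33 subunit symbols, and all 33 were found among the 20812 genes of the deposited count files. The list holds 14 genes of the 20S core, 17 genes of the 19S regulatory particle, and PSMD5 and PSMD9, which are chaperones of 19S assembly rather than parts of the finished particle. Subunits that replace others in the immunoproteasome were left out and are given further on.

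Messenger RNA was measured in HCT116, an established line of human colon cancer. Wild type cells and cells that overexpress human IDO1 (hIDO1), called IDO1 cells below, each had 24 h of DMF, the control treatment, or of 1 mM indole. IDO1 is the enzyme that opens the ring of tryptophan, and indole is a bacterial breakdown product of tryptophan. The series states 2 replicates each, but 1 count column was deposited for each group, so each group is 1 library with no replicate check. Whether IDO1 cells are a single clone, and which promoter drives IDO1 in them, was not stated in what was read here.

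The 20S core is a barrel of stacked rings. Alpha subunits form the outer rings and gate the entry, and beta subunits form the inner rings, where PSMB5, PSMB6 and PSMB7 carry the protease sites. The 19S particle caps the barrel: its ATPases (PSMC genes) unfold the substrate, its base holds ubiquitin receptors, and its lid removes the ubiquitin chain. Subunits are needed in fixed proportions, and in human cells their genes are known to be induced together by NFE2L1 (NRF1) when proteasome activity is short.

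Because these genes are known for joint regulation, the 250 bases before the annotated start are shown for 4 members: those with the largest and the next largest differences with indole in wild type (PSMB3 and PSMA3), the one with the smallest (PSMA1), and the one highest with indole relative to DMF in IDO1 cells (PSMD14). The choice was made among the members that the RefSeq promoter table (build GRCh38.p14) holds, 28 in all, leaving out PSMD5 for its low level. PSMA7, PSMB1, PSMB6, PSMB7 and PSMD4 were not matched. Capitals mark 2 motifs searched on both strands, TGACNNNGC, a core of the antioxidant response element that NFE2L1 binds, and CCAAT, the core bound by NF-Y. PSMB3 lies at chr17:38752491-38752740 (+), PSMA3 at chr14:58244593-58244842 (+), PSMA1 at chr11:14520387-14520636 (-) and PSMD14 at chr2:161308175-161308424 (+), each printed 5′ to 3′ along its gene.
PSMB3: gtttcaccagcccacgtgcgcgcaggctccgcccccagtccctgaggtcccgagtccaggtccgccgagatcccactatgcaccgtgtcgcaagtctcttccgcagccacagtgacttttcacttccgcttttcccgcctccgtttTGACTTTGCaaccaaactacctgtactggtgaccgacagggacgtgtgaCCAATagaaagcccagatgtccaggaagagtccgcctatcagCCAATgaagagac
PSMA3: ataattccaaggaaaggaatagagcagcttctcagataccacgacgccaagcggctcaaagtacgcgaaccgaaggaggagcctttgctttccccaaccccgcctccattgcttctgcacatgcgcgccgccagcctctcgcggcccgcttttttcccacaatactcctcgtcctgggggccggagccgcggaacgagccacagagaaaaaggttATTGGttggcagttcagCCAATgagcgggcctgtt
PSMA1: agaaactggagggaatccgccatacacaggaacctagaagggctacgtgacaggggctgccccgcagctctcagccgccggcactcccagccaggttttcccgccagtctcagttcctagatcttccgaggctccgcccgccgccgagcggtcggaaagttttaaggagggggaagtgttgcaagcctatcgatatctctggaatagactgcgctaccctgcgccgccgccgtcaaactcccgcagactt
PSMD14: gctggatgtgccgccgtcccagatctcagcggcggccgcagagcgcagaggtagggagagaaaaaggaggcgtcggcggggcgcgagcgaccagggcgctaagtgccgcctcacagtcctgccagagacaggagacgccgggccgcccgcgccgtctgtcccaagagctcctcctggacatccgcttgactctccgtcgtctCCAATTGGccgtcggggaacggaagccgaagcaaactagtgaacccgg

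PSMB3 held TGACNNNGC once and CCAAT at 2 places, PSMA3 held CCAAT at 2 places, and PSMA1 held neither. In PSMD14 the 2 CCAAT matches lie on opposite strands and overlap. Over the 28 members, 5 held TGACNNNGC (17.9%) and 13 held CCAAT (46.4%), which 11.6% and 34.6% did of the 14009 genes of the files with an entry. The letters are a description of these windows and not evidence of binding.

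Library totals ranged from 18283862 to 22736172 reads, each read from 1 short PCR target per gene. The IDO1 gene itself followed its labels, with 0 and 2 reads in wild type and 3451 and 2440 reads where it was overexpressed. Of 9 colon epithelial markers, EPCAM, KRT8, KRT18, KRT19, CDH1 and CDX2 were present in all 4 libraries, while CDX1 had 0 reads, VIL1 at most 2 and LGALS4 at most 13. The leukocyte markers PTPRC and CD3E had 0 reads in every library, LYZ had 5 to 14 and CD14 had 7 to 18. One library stood apart: on the first principal component of 8845 genes (73.0% of the variance) wild type with indole scored 32.6, and the others scored between -15.3 and -3.69. Comparisons that use that library are followed below by the one that leaves it out. The labels name no molecular identifiers, so reads may not be independent molecules. The 95% intervals below treat reads as independent and cover counting error only, so they may be too narrow.

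The 33 genes together took 0.758% of reads in wild type with DMF (Clopper-Pearson interval 0.755% to 0.762%) and 0.584% in wild type with indole (0.581% to 0.588%). In IDO1 cells they took 0.768% with DMF (0.765% to 0.772%) and 0.797% with indole (0.793% to 0.801%). Wild type with indole was thus the single low library, and the other 3 lay close together. Scaled read counts (CPM, read counts scaled to a common library size with TMM factors) ran from 4.55 for PSMD5 to 1078 for PSMB2. Since each gene is read from its own amplicon, these levels are compared between libraries and not between genes.

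**Figure D1:**
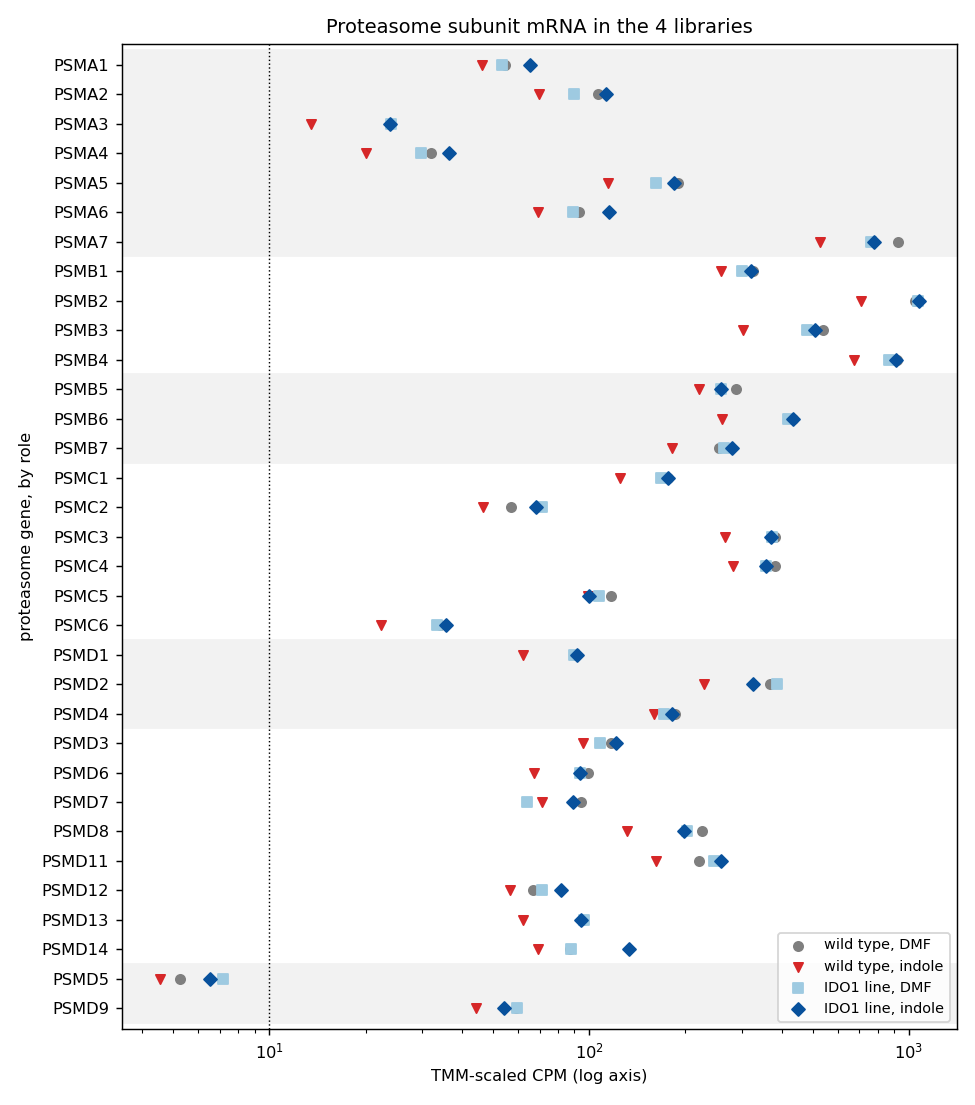
Scaled CPM (log axis) of the 33 proteasome genes in the 4 libraries, 1 marker per library, ordered by role (grey and white bands). The dotted line marks the minimum of 10 CPM, which PSMD5 does not reach. Wild type with indole (red) is the lowest marker for all genes but PSMD7.

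The first question was how the subunits differ with indole in wild type cells. Every subunit compared was lower with indole, in all parts of the particle, by between 1.16-fold and 1.78-fold. A gene was compared where at least 1 of the 2 libraries reached 10 CPM, which 32 of 33 members did. All 32 had a log2 ratio below 0 (53.8% of 8679 genes did, and 46.2% lay above), and 26 of 32 were at or below -0.32, the smaller of the 2 thresholds used throughout, where 25.3% of all genes were. None reached 0.32 (19.5% of all genes), and 0 of 32 were 2-fold apart (2.9%). Their median log2 ratio was -0.49, against -0.04 over all genes, where log2 ratios are of CPM plus a pseudocount of 1. The difference has no replicate check, since each group is 1 library.

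The alpha ring had a median log2 ratio of -0.65 over its 7 genes. PSMA7 had 923 CPM with DMF and 527 with indole in wild type, against 761 and 777 in IDO1 cells. It was 1.75-fold lower with indole in wild type (interval 1.71 to 1.80), well below all 3 other libraries. PSMA3 had 23.8 CPM with DMF and 13.5 with indole, 1.77-fold lower (1.52 to 2.06), and 24.0 and 23.8 in IDO1 cells. The other libraries of PSMA3 thus differed by less than their counting error. PSMA5 was 1.65-fold lower (1.56 to 1.74), PSMA4 1.59-fold (1.40 to 1.81), PSMA2 1.54-fold (1.44 to 1.64) and PSMA6 1.34-fold (1.249 to 1.44). PSMA1 was lower by the least in this ring, 1.18-fold (1.08 to 1.29), from 54.4 to 46.2 CPM.

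Among beta subunits without a protease site, PSMB3 went furthest. It had 538 CPM with DMF and 302 with indole in wild type, 1.78-fold lower (1.73 to 1.84), the largest fold of the 33 genes in this comparison, and 481 and 507 in IDO1 cells. PSMB2 was 1.47-fold lower (1.44 to 1.50), PSMB4 1.37-fold (1.34 to 1.40) and PSMB1 1.26-fold (1.21 to 1.30). The 3 catalytic subunits did not go by equal amounts. PSMB6, of the caspase-like site, went from 434 to 261 CPM, 1.67-fold lower (1.61 to 1.72). PSMB7, of the trypsin-like site, went from 254 to 182 CPM, 1.40-fold lower (1.34 to 1.46). PSMB5, the chymotrypsin-like subunit that proteasome inhibitors such as bortezomib bind, went from 288 to 220 CPM, 1.31-fold lower (1.26 to 1.36). The counting intervals of these 3 folds did not overlap between PSMB6 and the other pair.

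In the 19S particle, the ATPases had a median log2 ratio of -0.47 over 6 genes. PSMC6 was 1.53-fold lower (1.35 to 1.72) and PSMC3 1.43-fold (1.38 to 1.48), while PSMC5 went from 117 to 99.3 CPM, 1.18-fold lower (1.11 to 1.2498). PSMC1 was 1.41-fold lower, PSMC4 1.35-fold and PSMC2 1.22-fold. PSMD2 and PSMD1 are the large scaffold subunits of the base, and PSMD4 is a ubiquitin receptor. PSMD2 went from 369 to 229 CPM, 1.61-fold lower (1.55 to 1.67), and PSMD1 was 1.46-fold lower (1.35 to 1.57). PSMD4 was lower by 1.16-fold (1.11 to 1.22), the smallest fold among the 32 genes compared. Log2 ratios of the base subunits thus ranged from -0.69 to -0.22, where all 32 members ranged from -0.83 to -0.22.

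The 8 lid genes had a median log2 ratio of -0.42. PSMD8 had 225 CPM with DMF and 131 with indole, 1.71-fold lower (1.63 to 1.80), and PSMD13 was 1.54-fold lower (1.44 to 1.66). PSMD14, the metalloprotease that cuts the ubiquitin chain off the substrate, was 1.26-fold lower (1.17 to 1.35), and PSMD7, its partner in the lid, 1.32-fold (1.23 to 1.42). PSMD6 was 1.48-fold lower and PSMD11 1.37-fold. PSMD12 was 1.18-fold lower (1.09 to 1.28) and PSMD3 1.22-fold (1.15 to 1.30). Of the assembly chaperones, PSMD9 was 1.33-fold lower (1.22 to 1.46). PSMD5 had 112 reads in DMF against 88 in indole, and the interval of its ratio ran from 0.646 to 1.15, so no difference was detectable at this depth. Under TMM the counting interval of the ratio lay below 1 for all 32 members compared, which it did for 40.9% of 8679 genes. With library totals each ratio and its limits are higher, so this count depends on the scaling.

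Over all genes, those of high abundance and short transcripts tended to be lower with indole in wild type. Across all genes the log2 ratio had a Spearman correlation of -0.28 with abundance (n = 8679) and of 0.33 with transcript length (n = 8125), and the members' transcripts had a median length of 1591 bases against 3384. With the trends of abundance, GC content and length removed, the median of the members was -0.26, 27 of 32 were below 0 (50.3% of 8125 genes) and 11 at or below -0.32 (19.1%). PSMD4, PSMB1, PSMB4, PSMC5 and PSMB5 were then above 0, at 0.16, 0.16, 0.08, 0.04 and 0.03. Scaled by library totals instead, the median of all genes moved from -0.04 to 0.14 and that of the members from -0.49 to -0.32, with 15 at or below -0.32. Of all genes, 13.8% were then at or below -0.32 and 32.4% at or above 0.32. The members' median minus that of all genes was -0.45 under both scalings.

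**Figure D2:**
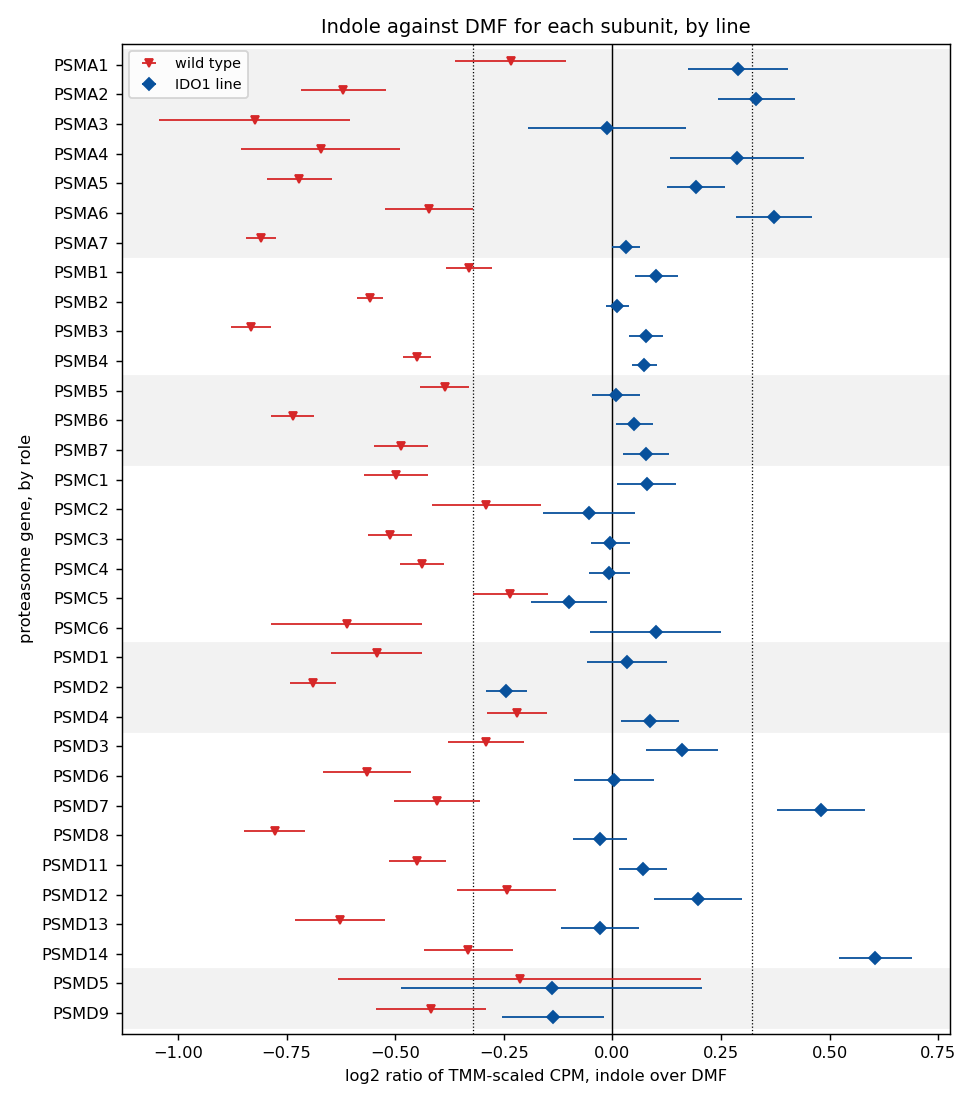
Log2 ratio of scaled CPM without a pseudocount, indole over DMF, for each of the 33 proteasome genes in wild type (red) and in IDO1 cells (blue), with 95% Clopper-Pearson intervals of counting error. Dotted lines mark log2 ratios of -0.32 and 0.32. All red markers lie left of 0, and blue markers scatter around 0 with PSMD14 and PSMD7 farthest right.

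The next question was how the subunits differ with indole in IDO1 cells. Most differed little: the median log2 ratio was 0.07 over 32 members against -0.01 over all genes, and the members ranged from -0.24 to 0.60. Of 32, 23 were above 0 (48.8% of 8523 genes) and 9 below (51.2%), and 4 were at or above 0.32 (4.09% of all genes). None was at or below -0.32 (3.34%), and 0 were 2-fold apart (0.0821%). The 4 genes were PSMD14, PSMD7, PSMA6 and PSMA2. This comparison does not use the library that stood apart.

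PSMD14 had 87.6 CPM with DMF and 133 with indole in IDO1 cells, 1.52-fold higher (1.43 to 1.61), against 86.9 and 69.1 in wild type. Its high value was in IDO1 cells with indole alone, as the DMF libraries of both lines were equal within counting error. PSMD7 had 64.0 CPM with DMF and 89.3 with indole, 1.39-fold higher (1.30 to 1.50), against 94.2 and 71.2 in wild type. For PSMD7 the low library was IDO1 cells with DMF, and its level with indole differed from wild type with DMF by less than counting error (ratio 0.948, interval 0.888 to 1.01). Both genes encode lid proteins with an MPN domain, and these proteins pair with each other in the particle.

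The alpha ring had the highest median log2 ratio of the parts in this comparison, 0.28, with 6 of 7 genes above 0. PSMA6 had 89.1 CPM with DMF and 115 with indole, 1.29-fold higher (1.22 to 1.37), and PSMA2 had 89.4 and 113, 1.26-fold higher (1.18 to 1.34). PSMA1 and PSMA4 were each 1.22-fold higher (1.13 to 1.32 and 1.10 to 1.36). PSMA7 and PSMA3, 2 of the most lowered genes in wild type, had ratios of 1.02 (0.9999 to 1.04) and 0.992 (0.874 to 1.13). With the trends of abundance, GC content and length removed, the median over all members was 0.04 and 2 members were at or above 0.32 (3.37% of 7992 genes).

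The catalytic subunits were nearly level. PSMB5 had 258 CPM with DMF and 259 with indole, PSMB6 had 417 and 432, and PSMB7 had 264 and 279. Noncatalytic beta subunits had log2 ratios between 0.01 and 0.10. The ATPases lay between -0.10 for PSMC5 and 0.10 for PSMC6. PSMD2 was the lowest member, going from 386 to 326 CPM, 1.18-fold lower (1.15 to 1.22), and PSMD9 was 1.10-fold lower (1.01 to 1.19). PSMD12 was 1.15-fold higher (1.07 to 1.23) and PSMD3 1.12-fold (1.06 to 1.18). Of the 32 members compared, the counting interval lay above 1 for 17 (20.6% of 8523 genes), below 1 for 3 (23.8%) and held 1 for 12.

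The indole responses of the lines were then set side by side. The difference of log2 ratios, IDO1 line minus wild type, was above 0 for all 32 members (54.1% of 8357 genes), with a median of 0.57 against 0.05 over all genes. It was largest for PSMA2 (0.94), PSMD14 (0.93), PSMA4 (0.92), PSMB3 (0.91) and PSMA5 (0.91), and smallest for PSMC5 (0.13). PSMA2, PSMA6, PSMD7 and PSMD14 were at or below -0.32 in wild type and at or above 0.32 in IDO1 cells, which 1.23% of all genes were. With library totals the median difference was 0.39, and with the trends removed 0.29. With 1 library per group the difference between the responses could not be tested. The 32 genes' responses in the lines, which share no library, had a Spearman correlation of 0.22 across members and of -0.12 across 8357 genes.

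Between the lines in DMF the proteasome genes stood close together. The lines also differed in genes of embryonic kidney lines, given below, a list chosen with earlier results of these data known. The median log2 ratio of the proteasome genes, IDO1 line over wild type, was -0.06 against -0.01 over all genes. Of 32, 22 were below 0 (51.6% of 8500 genes) and 10 above (48.4%). With library totals the median was 0.03 and 12 were below 0 (32.3% of 8437 genes), so the direction depends on the scaling. Of all genes, 3.77% were then at or below -0.32 and 12.7% at or above 0.32. PSMD7 was the only member of the 32 at or below -0.32 (7.71% of all genes were), at 64.0 CPM in IDO1 cells and 94.2 in wild type, 1.47-fold lower (1.37 to 1.57). PSMC2, an ATPase, had 71.1 CPM in IDO1 cells and 57.0 in wild type, 1.247-fold higher (1.16 to 1.34), with a log2 ratio of 0.31. None of the 32 was at or above 0.32 (5.92%), and 0 were 2-fold apart (0.447%). PSMD5, under the minimum level, had 164 against 112 reads, 1.36-fold higher (1.07 to 1.75). PSMA7 was 1.21-fold lower (1.19 to 1.24) and PSMA2 1.20-fold (1.13 to 1.27).

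In indole all 32 subunits were higher in IDO1 cells (52.8% of 8765 genes, while 47.2% were lower), with a median log2 ratio of 0.55 against 0.03 over all genes. With library totals 31 of 32 were (45.9% of 8857 genes). At or above 0.32 there were 27, where 26.8% of all genes were, 0 at or below -0.32 (21.7%), and 0 were 2-fold apart (4.51%). The largest was PSMD14, with 133 CPM against 69.1, 1.93-fold higher (1.80 to 2.06), followed by PSMA4, 1.81-fold (1.60 to 2.06), PSMA3, 1.76-fold (1.51 to 2.06), and PSMB3, 1.68-fold (1.62 to 1.73). PSMC5 had 99.96 against 99.3 CPM, a ratio of 1.01 (0.944 to 1.07), and PSMD4 was 1.14-fold higher (1.08 to 1.19). This comparison and the one of indole in wild type share the library of wild type with indole, so they are not separate evidence.

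Without that library, IDO1 cells with indole can be set against wild type with DMF. The median log2 ratio of the members was then -0.0087, with 18 of 32 below 0 (51.6% of 8543 genes) and 14 above (48.4%). None was at or below -0.32 (7.73%), 0 were 2-fold apart (0.363%) and 1 was at or above 0.32 (6.16%), which was PSMD14 at 1.53-fold (1.44 to 1.63). These values are under TMM, with factors of 1.004 for IDO1 cells with indole and 0.938 for wild type with DMF. With library totals each ratio is higher, so the median and the counts depend on the scaling. Over the 33 genes, the ratio of the highest to the lowest of the other 3 libraries had a median of 1.12, ranging from 1.01 for PSMA3 to 1.53 for PSMD14. With wild type with indole included it had a median of 1.53. That library was the lowest of 4 for 31 of 32 members (42.7% of 8845 genes) and the highest for 0 (35.2%). PSMD7 was the exception, lowest in IDO1 cells with DMF (17.5%). Under TMM the highest library was wild type with DMF for 14 members (22.4%), IDO1 cells with indole for 13 (22.5%) and IDO1 cells with DMF for 5 (19.9%). By share of reads, the 33 genes together were highest in IDO1 cells with indole, at 0.797% against 0.758% in wild type with DMF. The order of these libraries thus depends on the scaling.

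Genes known from embryonic kidney lines, among them IRS4, UCHL1 and VIM, moved with the line. Of 10 such genes chosen with earlier results known, 10 had reads in IDO1 cells, and their summed level was 124 and 130 CPM there against 4.80 and 3.20 CPM in wild type. Because of that choice the list is a description and not a test. VIM alone had 53.7 and 58.5 CPM in IDO1 cells. PAX2 had 22 reads in each library of IDO1 cells against 12 and 7 in wild type. HOXD13, ADAMTS1, CADM1, UCHL1, LIN28B and NEFM had 0 reads in both wild type libraries. Of the 6 colon markers compared in DMF, 5 were below 0 in IDO1 cells relative to wild type (51.6% of 8500 genes). The median log2 ratio of these markers was -0.29, and 3 were lower by at least the smaller threshold (7.71% of all genes). With library totals 32.3% of all genes were below 0, so a count of directions depends on the scaling. The part of either list in the line differences of the proteasome genes was not tested. In bulk RNA, fewer cells of a type and less RNA per cell cannot be told apart.

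**Figure D3:**
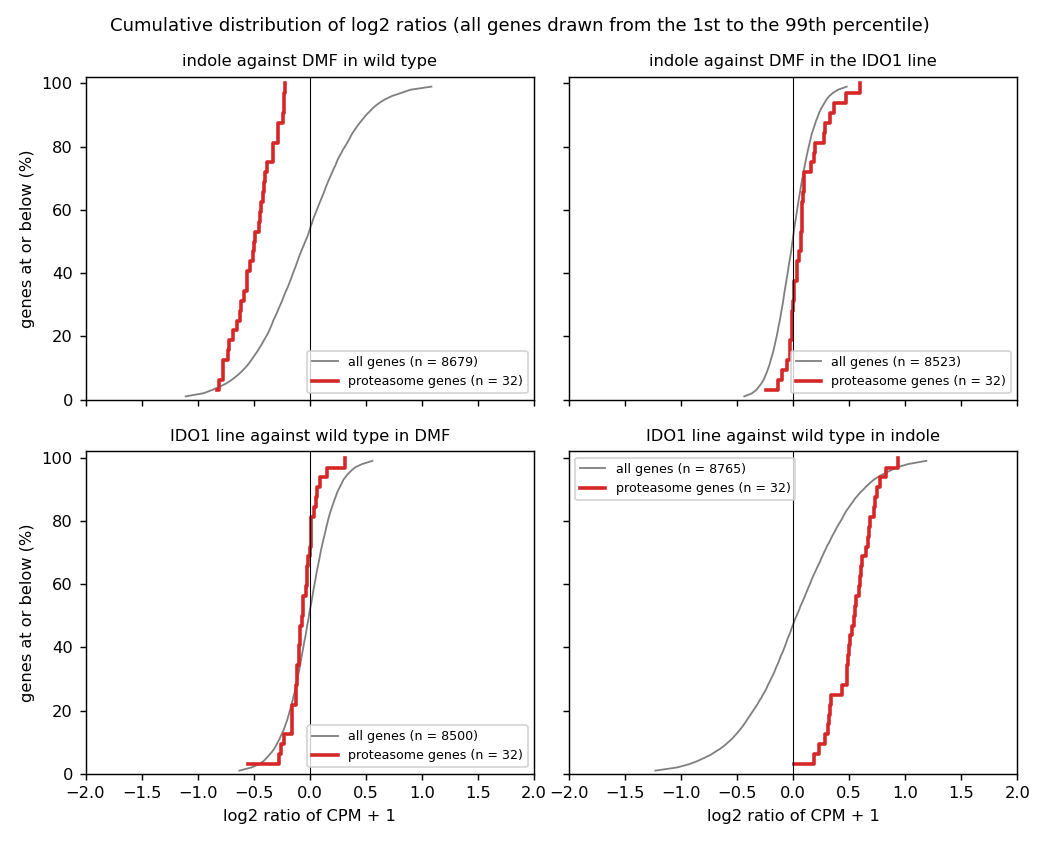
Cumulative share of genes (%) at or below each log2 ratio of CPM + 1 in the 4 comparisons, for 32 proteasome genes (red) and all genes compared (grey, drawn from percentile 1 to 99). The red curve stands left of the grey one for indole in wild type, right of it for the lines in indole, and near it in the other panels.

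Additive models asked which subunits moved with indole in both lines, or with the line in both treatments. With edgeR's quasi-likelihood test, 0 of 33 members passed an adjusted p of 0.05 for indole, as did 0% of 13122 genes, and 0 had an unadjusted p under 0.05 (3.41% of genes). The smallest adjusted p among members was 0.9997, and the median log2 fold change was -0.20. For the line, 0 of 33 passed, against 2.45% of genes, and 0 had an unadjusted p under 0.05 (9.99% of genes). The smallest adjusted p there was 0.529, for PSMD14, with a log2 fold change of 0.47 (standard error 0.24). Its ratio between the lines was 1.01 in DMF and 1.93 in indole. DESeq2 called 0 members for either effect, with 0 under an unadjusted p of 0.05. The residual of these fits is the single contrast in which the indole responses of the lines differ, and all 32 members compared differed in it in the same direction.

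The other genes of the pathway were taken from lists of accessory factors. Their ratios and counts are given under TMM alone. For indole in wild type, 53.8% of all genes were below 0 under TMM and 37.5% with library totals. The direction of small differences in these lists thus depends on the scaling, which the counting intervals do not cover. In the additive fits 0 genes of these 8 lists passed in either direction, for indole or for the line, with smallest adjusted p values of 0.9997 and 0.163. ADRM1, a ubiquitin receptor of the base, and SHFM1, a small lid subunit, complete the 19S particle. With indole in wild type they were 1.35-fold lower (1.30 to 1.40) and 1.49-fold lower (1.42 to 1.56) respectively, and in IDO1 cells they had ratios of 0.959 (0.928 to 0.990) and 0.977 (0.936 to 1.02).

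Assembly factors went with the subunits. All 7 had log2 ratios at or below -0.32 with indole in wild type (median -0.52), which 25.3% of all genes had. In IDO1 cells all 7 were above 0 (48.8% of all genes), with a median of 0.16. POMP, which matures the 20S core, had 286 and 142 reads in wild type, 1.83-fold lower (1.49 to 2.26), against 314 and 284 in IDO1 cells. PSMG1, part of the chaperone that builds the alpha ring, went from 32.6 to 17.9 CPM in wild type, 1.82-fold lower (1.60 to 2.08), and from 30.2 to 40.3 CPM in IDO1 cells, 1.34-fold higher (1.20 to 1.48). PSMG4, of the other alpha-ring chaperone, was 1.63-fold lower (1.49 to 1.78) in wild type, and PAAF1, an assembly chaperone of the ATPase ring, was 1.34-fold higher (1.12 to 1.60) in IDO1 cells.

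Activators of the core lay nearer to level, and the median log2 ratio of the 5 genes was -0.03. In wild type with indole, the proteasome activator genes PSME1 and PSME4 had ratios of 0.978 (0.916 to 1.04) and 1.09 (0.995 to 1.20), the inhibitor PSMF1 had 1.004 (0.955 to 1.06), and PSME2 was 1.13-fold lower (1.06 to 1.22). PSME3, the nuclear activator, was the exception, 1.34-fold lower (1.252 to 1.43). Of the immunoproteasome, PSMB10 was 1.38-fold lower (1.252 to 1.51) with indole in wild type. PSMB9 went the other way, from 128 to 183 reads, 1.57-fold higher (1.247 to 1.99), under 10 CPM in all 4 libraries. PSMB8 had 1 to 3 reads. The tissue-specific subunits PSMA8 and PSMB11, which are not of the immunoproteasome, had 0.

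Among shuttles and enzymes bound to the proteasome, 7 of 8 compared were below 0 with indole in wild type (53.8% of all genes), and their median log2 ratio was -0.24. At or below -0.32 were UBQLN2, TXNL1 and USP14 (25.3% of all genes). TXNL1, a thioredoxin-like protein of the proteasome, was 1.28-fold lower (1.14 to 1.44) and USP14, a deubiquitinase, 1.26-fold lower (1.15 to 1.38). UBQLN2, a shuttle factor, had 31.1 CPM with DMF and 14.9 with indole, 2.08-fold lower (1.81 to 2.40), against 37.9 and 34.2 in IDO1 cells. RAD23B, another shuttle, was 1.05-fold lower (1.01 to 1.10), a direction that depends on the scaling. UBE3C, a ubiquitin ligase of the proteasome, was 1.40-fold higher (1.27 to 1.54). VCP, the unfoldase upstream of the proteasome, was 1.42-fold lower (1.39 to 1.46), its cofactor UFD1L 1.07-fold lower (1.01 to 1.13) and its cofactor NPLOC4 1.13-fold higher (1.08 to 1.17). The ubiquitin gene UBB was 1.23-fold lower (1.21 to 1.249), and the activating enzyme UBA1 was 1.24-fold lower (1.21 to 1.28). In IDO1 cells 5 of the 8 shuttles and enzymes were above 0 (48.8% of all genes), and UBQLN1 was 1.36-fold higher (1.21 to 1.53).

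Of the 5 transcription factors of the subunit genes that were compared, 3 were above 0 with indole in wild type (46.2% of all genes). The other 2 were below 0 (53.8%), and the median log2 ratio of the 5 was 0.10. NFE2L1 had 214 CPM with DMF and 247 with indole in wild type, 1.16-fold higher (1.11 to 1.20), and 248 and 229 in IDO1 cells, 1.09-fold lower (1.04 to 1.13). In wild type its mRNA thus lay on the other side of 0 from the subunits, by a small amount. The protein of NFE2L1 was not measured. NFE2L2 was 1.07-fold higher (1.00 to 1.15) in wild type, and MAFK, a small partner of both factors, 1.34-fold higher (1.14 to 1.57). Of the NF-Y subunits, NFYB was 1.66-fold lower (1.33 to 2.07) and NFYA 1.11-fold lower (1.02 to 1.20), while NFYC had at most 1 read and MAFG 0.

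**Figure D4:**
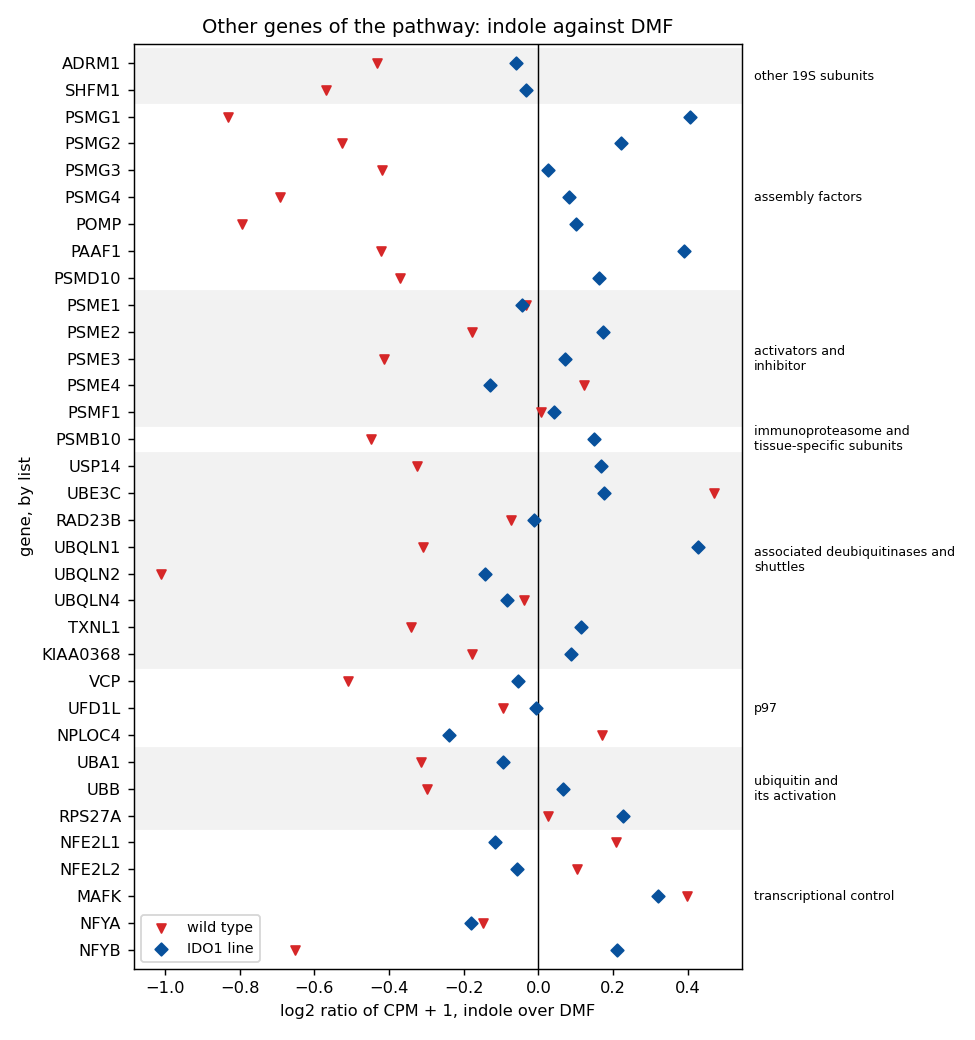
Log2 ratio of CPM + 1, indole over DMF, for the genes of 8 accessory lists with at least 10 CPM in 1 of the 2 libraries, in wild type (red) and IDO1 cells (blue). Assembly factors and both other 19S subunits lie left of 0 in wild type, and activators and transcription factors fall on both sides.

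Within the complex, the size of the difference in wild type was described against properties of the genes. Across 32 members the log2 ratio had a Spearman correlation of -0.22 with abundance, -0.05 with GC content and 0.11 with transcript length. In IDO1 cells the correlation with GC content was -0.41, and over all genes it was -0.19 (n = 7992). Members share libraries, and these values carry no test. The 13 members with a CCAAT match, shown above for PSMB3, PSMA3 and PSMD14, had a median log2 ratio of -0.51 in wild type, and the 14 compared without one -0.47. The 4 compared with TGACNNNGC, namely PSMB3, PSMD3, PSMD9 and PSMD12, had -0.35, and the 23 without it -0.51. Whether either motif goes with the size of the difference was not tested. The 5 members without an entry, PSMA7 and PSMB6 among them, are not in these medians.

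GENCODE release 29 lists pseudogenes named after 10 of the 33 members, with 13 for PSMC1, 4 for PSMA6 and 3 for PSMA2. Reads of these 10 genes could include reads of a copy, so PSMA2, PSMA3, PSMA6, PSMB3, PSMB7, PSMC1, PSMD4, PSMD7, PSMD8 and PSMD12 are uncertain in that respect. The 23 others have no copy of that kind named after them.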

How the data were processed

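Amplicon sequencing (Ion AmpliSeq transcriptome kit, 1 target per gene) was deposited as raw counts of reads per target, 1 column per group, per the file headers. Per the submitters' processing notes the genome build is hg19; the aligner and the counting tool are not given in the sources used here. All 20812 targets carry a gene name. Totals ranged from 18283862 to 22736172 reads, and a count of 0 allows up to 3 reads, or 0.132 to 0.164 CPM.

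Counts were scaled by TMM (edgeR 4.0.16) to CPM. Log2 ratios used a pseudocount of 1, which understates the change of low genes, for genes with at least 10 CPM in 1 of the 2 libraries. Ratios at or beyond -0.32 and 0.32, and 2-fold apart, were counted. Folds carry no pseudocount and have 95% Clopper-Pearson intervals of how a gene's reads divide between 2 libraries. The additive fits used all 4 libraries, filterByExpr, edgeR's quasi-likelihood test and Benjamini-Hochberg adjustment over all genes, with 1 factor each for line and treatment. Standard errors were the absolute log2 fold change over the root of F and are approximate. The fit was also run on simulated counts in which the indole effect was equal in both lines. In the data the responses differed between the lines, so that run does not check the calls made here. Separate cultures are not stated, and each condition has 1 library, so the p-values rest on no spread between replicates. They rest on the residual of the additive fits, the contrast in which the indole responses of the lines differ. A high p-value there is thus no measure of technical spread. Other settings were library totals, median-of-ratios factors, totals without the 10 most abundant genes, pseudocounts, minimums, removed trends (loess, GC and length of the longest GENCODE 29 transcript) and DESeq2 1.42.0.

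The genes named are IDO1, all 33 members and genes of 8 accessory lists and 5 marker lists. A few genes of these lists are not reported here and enter no count, and other genes of the lists are given by counts and in the plot alone. Members and lists were chosen with earlier results of these data known. Fibroblast markers summed to 74.6 to 97.5 CPM, nearly all COL1A1, endothelial ones to 3.71 to 4.65 CPM and leukocyte ones to 0.627 to 1.34 CPM. Promoter sequences came from RefSeq (GRCh38.p14), matched by symbol, and no coordinates of the hg19 files were used.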

Additional observations from a re-analysis of the deposited data

Results flagged for a closer look

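The medians of the proteasome genes with indole lay on opposite sides of 0 in the lines, at -0.49 in wild type and 0.07 in IDO1 cells, with a median difference of log2 ratios, IDO1 cells minus wild type, of 0.57. Of single genes, PSMA2 (0.94), PSMA6 (0.78), PSMD7 (0.87) and PSMD14 (0.93) had log2 ratios at or below -0.32 in wild type and at or above 0.32 in IDO1 cells. These differences were not tested, as each group is 1 library.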

How the results depend on the processing

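Under every alternative scaling, pseudocount, minimum and trend, the members' median stayed below 0 for indole in wild type and above 0 between the lines in indole. For indole in wild type, the median of -0.49 became -0.32 with library totals, -0.32 without the 10 most abundant genes, -0.45 at 50 CPM, -0.32 without the abundance trend and -0.26 without all trends, and the 26 members at or below -0.32 became 15, 16, 16 and 11 (all but 50 CPM), where 13.8%, 13.8%, 21.2% and 19.1% of all genes were. PSMB1, PSMB4 and PSMB5, each past -0.32 before, turned to 0.16, 0.0789 and 0.0331 with all trends removed, and PSMD4 and PSMC5 to 0.16 and 0.0389. With IDO1 cells with indole in place of wild type with indole, against wild type with DMF, the median was -0.0087. That value is under TMM alone and depends on the scaling. For indole in IDO1 cells it was 0.0846 without the abundance trend and 0.0404 without all trends, with 2 in place of 4 members at or above 0.32 in the latter. Between the lines in DMF the median was 0.0320 with library totals and 0.0077 without the top 10 genes. It was -0.0305 without the abundance trend and 0.0279 without all trends. At or above 0.32 there was 1 member with library totals (12.7% of all genes) and 1 without the top 10 genes (10.9%). With a minimum of 1 CPM there was 1, PSMD5 (10.1%). In indole the median was 0.47, 0.46, 0.46 and 0.34 in the same order, 0.52 with a pseudocount of 5 and 0.53 at 50 CPM. The median difference between responses was 0.39, 0.40, 0.45 and 0.29. The additive fits called 0 members in every setting, while the count over all genes for the line went from 322 to 74 at 10 CPM in 2 libraries, 86 with DESeq2 and 418 with no filter, and for indole from 0 to at most 10. The cause of these shifts was not tested. No paired analysis was possible because each group has 1 library, and leaving 1 out leaves no residual degree of freedom. The fixed minimum of 10 CPM keeps out PSMD5, whose 88 to 164 reads per library limit what can be seen.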
